A study of Mus musculus with 2 samples.

Results

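Mouse chromosome 17 carried 499 of the 9095 regions at which NELF-B was enriched in fibroblasts cultured directly from a mouse embryo. The members are all entries of the deposited interval list on this chromosome, each joined by its order in the file to its summit, and they were compared with the 8386 regions of the other 18 autosomes. The chromosome carries the major histocompatibility complex (MHC), and 67 of its regions had their summit between 33.5 and 38 Mb, a stretch that fits the MHC and its flank in the coordinates of the mouse build mm9. The labels and the file do not name the build. A list of mouse genes from another assembly, GRCm38.p6, was therefore used only for names, gene numbers and gene order, and no region was assigned to a gene.

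The series consists of 1 NELF-B chromatin immunoprecipitation (ChIP-seq) library and 1 input library (DNA from the same kind of chromatin with no antibody). Both came from fibroblasts of a Nelf-b f/- embryo, with 1 floxed and 1 null allele, on a mixed background of the 129/SvJ, C57BL/6 and FVB strains. The cells were growing asynchronously, untreated, in medium with 10% serum. Chromatin was fixed for 15 min in 1% formaldehyde, and a purified polyclonal antibody against NELF-B was used. With 1 library per group, replicate error could not be measured for any value, and the input contributed no values. Sequencing depth is unknown. The height beside each summit is the authors' own score, with an unstated unit, and was compared only within this list. No p-value is given. The 95% intervals are exact, cover only counting error within this library, and take each region as independent.

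NELF-B belongs to the negative elongation factor (NELF), a protein complex which acts with the factor DSIF to hold RNA polymerase II shortly after it has begun to transcribe. The kinase P-TEFb releases the polymerase into elongation. NELF is typically found just downstream of the start sites of active genes, and paused polymerase is common at genes that respond fast to signals, heat shock and tumour necrosis factor genes among them. The MHC holds genes of both kinds. Its class I molecules present peptides from inside the cell to cytotoxic T cells and are made by most nucleated cells, fibroblasts included. Its class II molecules present peptides to helper T cells, are made mainly by professional antigen-presenting cells, and are low in fibroblasts not exposed to interferon gamma. Between these lies the gene-dense class III part, with complement, tumour necrosis factor and heat shock genes.

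In the gene list the order on chromosome 17 runs from H2-K1, a classical class I gene, through the class II genes to class III, and then to H2-D1, the second classical class I gene. From H2-K1 to H2-D1, both included, there are 83 protein-coding genes. The 9 class II genes, from H2-Oa to H2-Eb2, lie within a run of 14 that also holds Tap1, Tap2, Psmb8 and Psmb9, which cut and transport peptides for class I, and Brd2, a reader of acetylated histones. They are followed by a run of 5 genes from Btnl2 to Btnl6, most of them butyrophilin-like. The class III genes include Nelfe, which encodes another subunit of the NELF complex and sits between Skiv2l and Cfb. Tnf, Lta and Ltb of the tumour necrosis factor family lie near the end of class III, and 3 heat shock genes, Hspa1a, Hspa1b and Hspa1l, lie between Ehmt2 and Csnk2b. Beyond H2-D1 come class I genes of the Q, T and M series, mixed with genes of general function such as Tubb5, Flot1, Abcf1 and Gnl1. Of the 169 protein-coding genes from H2-K1 to H2-M2, 16 are olfactory receptor genes, and in the list these lie at the far end of the run.

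Chromosome 17 was densely occupied. It had 5.24 regions per Mb (exact Poisson interval 4.79 to 5.72), against 3.54 (3.46 to 3.62) for the other autosomes pooled, a ratio of 1.48 (exact interval 1.35 to 1.62). It ranked 2 of 19 autosomes, between chromosome 11 at 6.10 (5.67 to 6.56) and chromosome 19 at 5.06 (4.51 to 5.65). The interval of chromosome 17 overlapped those of both neighbours in this order. Per gene the chromosome also ranked 2 of 19, behind chromosome 8, with a smaller distance from the rest. It had 51.9 regions per 100 protein-coding genes (47.4 to 56.6), with olfactory and vomeronasal receptor genes left out. The other autosomes ranged from 36.6 to 53.1 with a median of 47.7, which lay inside that interval. With the receptor genes left in, chromosome 17 had 47.1 (43.1 to 51.4), and its rank depends on this choice. The density outside the stretch from 33.5 to 38 Mb was 4.76 regions per Mb (4.32 to 5.23), which was still 1.35 times that of the other autosomes (1.22 to 1.48). The regions of chromosome 17 covered 0.674% of its length, against 0.427% on the other autosomes.

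**Figure D1:**
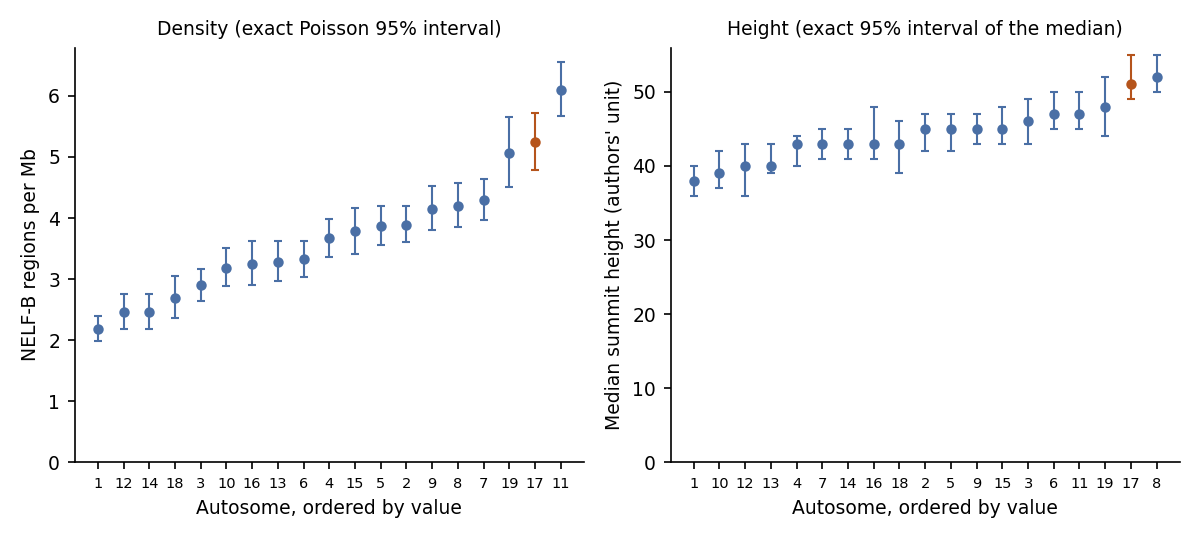
Left, NELF-B regions per Mb on each of the 19 autosomes, with exact Poisson 95% intervals. Right, median summit height in the authors' unit, with exact 95% intervals of the median. Chromosome 17 (orange) ranks 2 of 19 in both, behind chromosome 11 in density and chromosome 8 in height.

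Regions on chromosome 17 were also taller than those of the other autosomes pooled, mainly through a shift in the middle of the range. The median height was 51 (interval 49 to 55) with quartiles of 35 and 74. On the other autosomes the median was 44 (44 to 45) with quartiles of 32 and 64, so the ratio was 1.16. Chromosome 8 had the higher median, 52 (50 to 55), and its interval overlapped that of chromosome 17. Heights of 50 to 99 made up 42.7% of the members (38.3 to 47.2), against 33.2% elsewhere (32.2 to 34.3). Heights of 25 to 49 made up 41.1% (36.7 to 45.5), against 49.5% (48.4 to 50.5), and heights under 25 made up 5.81% (3.93 to 8.24), against 9.13% (8.53 to 9.77) and 8.99% in the whole list. In each of these 3 classes the intervals did not overlap. At heights of 100 to 199 they did, with 7.82% (5.62 to 10.5) on chromosome 17 and 6.92% (6.38 to 7.48) elsewhere. Heights of 200 or more were reached by 13 members, or 2.61% (1.39 to 4.41), against 1.25% (1.03 to 1.51), and here too the intervals overlapped.

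**Figure D2:**
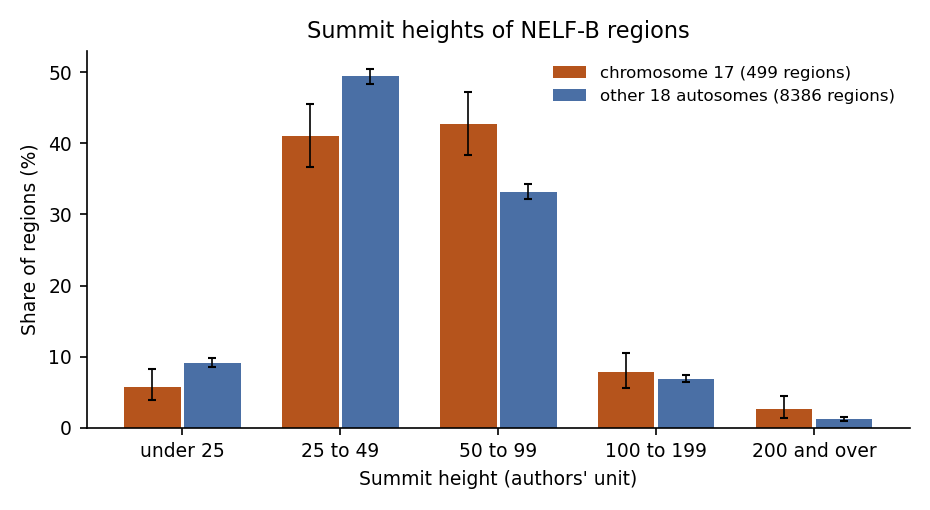
Share of regions in 5 classes of summit height (authors' unit), for chromosome 17 (orange, 499 regions) and the other 18 autosomes (blue, 8386 regions), with exact Clopper-Pearson 95% intervals as error bars. Chromosome 17 has the larger share at 50 to 99 (42.7% against 33.2%) and the smaller share in both lower classes.

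The tallest 10% of the list is taken as heights of at least 94, which 883 regions or 9.71% of the list reached, since heights are whole numbers with many ties. On chromosome 17 this was 62 of 499, or 12.4% (9.66 to 15.6), so the share of the whole list lay just inside the interval. This share ranked 4 of 19, behind chromosomes 8 (18.0%), 6 (16.3%) and 11 (14.8%). These 62 tall members held 31.3% of the summed height of the chromosome and lay in 30 windows of 1 Mb. Widths followed the heights. The median width was 1206 bp (1162 to 1237), against 1136 bp (1127 to 1143) on the other autosomes. Widths of at least 1691 bp, which 10.0% of the whole list reached, were found in 73 members or 14.6% (11.6 to 18.0), against 9.85% (9.22 to 10.5) elsewhere. Of these 73, 13 were among the tallest and 60 were not. The tallest made up 12.4% of all members and 9.71% of the whole list. The split of the wide regions was not counted on the other autosomes. Height and width had a Spearman's rho of 0.42 over the 499 members and 0.41 over the other autosomes, a description of 1 library in which both values come from the same reads. Within the same quartile of height the widths differed little. At heights of 66 and above the median was 1349 bp (1269 to 1413) on chromosome 17 and 1302 bp (1282 to 1324) elsewhere. Summits lay at a median of 48.2% of the width from the left edge (47.1 to 49.3), against 48.5% (48.2 to 48.9).

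Members were spaced more closely than regions of the other autosomes pooled. The median distance to the next region was 47.6 kb, with quartiles of 18.0 and 136 kb, against 74.3 kb with quartiles of 26.7 and 212 kb. Another region lay within 10 kb of 117 members, or 23.4% (19.8 to 27.4), where the whole list had 17.2% and the other autosomes 17% (16.2 to 17.8). In this share chromosome 17 ranked 2 of 19, between chromosome 19 at 25.5% and chromosome 11 at 22.3%, the same 3 chromosomes that were densest. Runs of 3 or more regions linked by gaps of at most 10 kb held 35 members in 11 runs, which is 7.01% (4.93 to 9.62) against 3.23% (2.86 to 3.63). Neighbours share a run, so these intervals may be too narrow. The longest run, chr17:34045566-34078116, lay inside the MHC stretch and held 5 regions over 32.6 kb, with heights of 71, 32, 83, 38 and 74 in order. Median heights were equal, 51 (46 to 60) with a neighbour that close and 51 (49 to 55) without. The shortest gap on the chromosome was 452 bp, between chr17:15634803-15635783 (height 69) and chr17:15636236-15637381 (height 83). The next gaps were 1.60 kb near 5820551, 2002 bp near 33226947, 2.35 kb near 56176740 and 2.60 kb near 87570392, and the pairs beside them had heights of 32 to 63.

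Along the chromosome the members were unevenly spread. The 18 windows of 1 Mb with 10 or more regions made up 18.8% of the windows and held 60.9% of the members. These windows were picked by their counts, and the same share was not computed for the other autosomes. Windows without a region numbered 27 of 96, or 28.1% (19.4 to 38.2), against 31.4% (29.5 to 33.3) on the other autosomes, so the 2 shares could not be told apart. The part before 33.5 Mb had 6.60 regions per Mb (5.76 to 7.53) and the part after 38 Mb had 3.68 (3.20 to 4.22), a ratio of 1.79 (1.48 to 2.17). Within the first part the members were concentrated towards its end. The first 10 Mb held 29 and the second 10 Mb 26, while the third held 142. Of these 142, 22 were among the tallest 10% of the list, beside 62 of all 499 members (12.4%). The last band held 3, and it is shorter than 10 Mb, from 90000001 to the end of the last region at 95264751. The share of broad regions varied along the chromosome, with overlapping intervals. Widths of at least 1691 bp were found in 18.0% of regions after 38 Mb (13.1 to 23.9) and in 9.95% before 33.5 Mb (6.34 to 14.7), and in 19.4% of those in the MHC stretch (10.8 to 30.9). Median heights were 49 (45 to 55) and 53 (51 to 60).

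The 5 densest windows of 1 Mb held 121 members, or 24.2%. The windows from 24000001 and from 56000001 held 27 each. Those from 35000001 and from 46000001 held 23 each, and the window from 34000001 held 21. Of the 5, 2 therefore lay in the MHC stretch. They differed in height. The window from 46000001 had a median of 63 and a range of 14 to 276, with 6 of its regions among the tallest 10% and 16 with a neighbour within 10 kb. The window from 24000001 had a median of 60 and a range of 20 to 556. The window from 35000001 had a median of 61, the window from 56000001 had 52 with none above 115, and the window from 34000001 had 45. Without any region were stretches of 6151 kb from 88997588, 3884 kb from 59153182, 3106 kb from 9181794, 3034 kb from 18047539 and 2814 kb from 37166234. These were the 5 longest between 2 regions of the chromosome. The last of these began inside the MHC stretch. The stretch before the first region, which starts at 3083434, was left out of this ranking, although its windows count among the empty ones. Unmappable sequence was not excluded, and its part in these stretches was not tested.

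**Figure D3:**
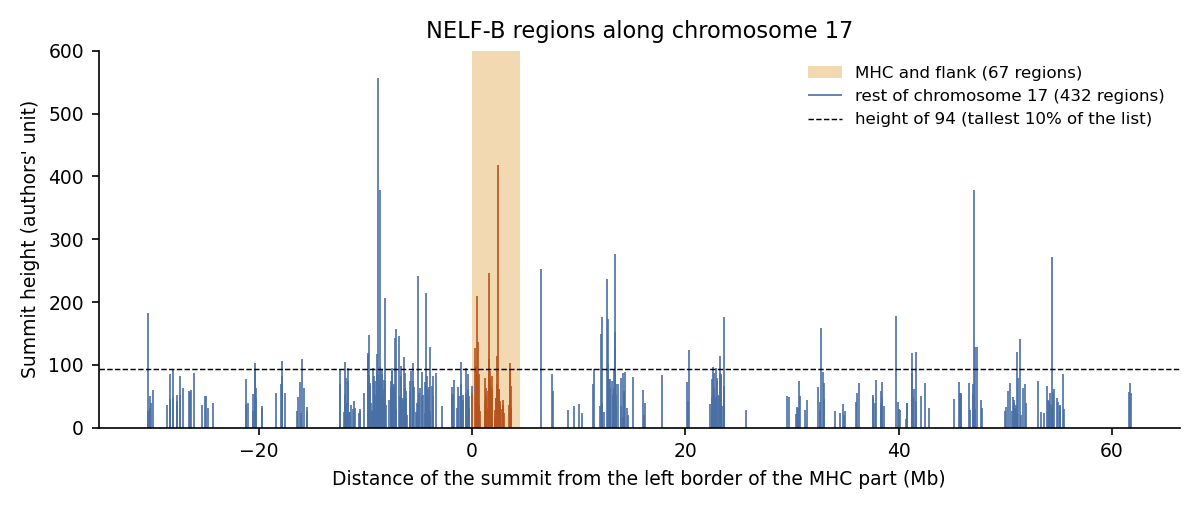
Summit height (authors' unit) of the 499 NELF-B regions of chromosome 17 against the distance in Mb from the left border of the MHC part, at 33.5 Mb. The 67 regions of the MHC and its flank are in orange on a shaded band, the other 432 in blue, and the dashed line marks a height of 94. Regions are unevenly spread on both sides of the band, with 27 empty windows of 1 Mb among 96.

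Of the 10 tallest members, 3 lay before 33.5 Mb, 2 in the MHC stretch and 5 after 38 Mb. These parts held 44.3%, 13.4% and 42.3% of all members. The tallest, chr17:24664104-24666651, reached 556 and was 2548 bp wide. The third, chr17:24856454-24857492, lay in the same window, with a height of 379 over only 1039 bp, narrower than the median member. The 6 regions between these 2 had heights of 84, 66, 20, 73, 27 and 97, of which the last is itself among the tallest 10% of the list. The second tallest, chr17:35957819-35959361, lay in the MHC stretch and reached 418. On the distal part, chr17:80605612-80607412 reached 378, chr17:46919129-46920530 reached 276 and chr17:87845640-87847067 reached 272. The remaining 4 were the widest region of the list, described last, with 253, chr17:35087294-35090372 in the MHC stretch with 246, chr17:28464457-28466174 with 241 and chr17:46168568-46170040 with 237. Width did not follow height in every member. The second widest member, chr17:23811822-23815028, spanned 3207 bp at a height of 147, and the fifth widest, chr17:48547358-48550242, spanned 2885 bp at a height of 81 with the nearest other region 408 kb away. With 1 library the order of single heights has no replicate check.

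The stretch from 33.5 to 38 Mb held 67 regions over 4.50 Mb, or 14.9 per Mb (11.5 to 18.9). This was 3.13 times the density of the rest of the chromosome (2.38 to 4.05) and 4.21 times that of the other autosomes (3.26 to 5.35). When the rest of the chromosome was counted over windows of 1 Mb that held a region, the ratio was 2.20 (1.67 to 2.85). Of 517 tiles of the same length placed end to end on the other autosomes, 5 or 0.967% held as many regions. The median tile held 12, with quartiles of 6 and 20, and the fullest held 92. No such tiles were placed on chromosome 17, where the stretch was not the densest part. Its windows of 1 Mb from 24000001, 25000001, 26000001 and 27000001 held 27, 19, 18 and 19 regions, together more than 67. Heights in the stretch could not be told apart from those of the rest of chromosome 17: the median was 48 (41 to 61), against 52 (49 to 55). The range was 18 to 418. Tall regions were 9 of 67, or 13.4% (6.33 to 24.0), against 12.3% (9.33 to 15.7) in the rest. The stretch held 13.4% of the members of chromosome 17 and 13.8% of their summed height.

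Regions in this stretch were closely packed, which is not separate from their density, since more regions per Mb leave shorter gaps. Another region lay within 10 kb of 23 of the 67, or 34.3% (23.2 to 46.9), against 21.8% (18.0 to 26.0) in the rest of the chromosome. These intervals overlapped, while that of the other autosomes (16.2 to 17.8) lay below the first. The median gap between consecutive regions was 22.2 kb, with quartiles of 12.2 and 48.0 kb. The 23 regions had a median height of 61 (43 to 79) and the other 44 had 43.5 (37 to 53), with overlapping intervals. Widths of at least 1691 bp were found in 13 regions or 19.4% (10.8 to 30.9), beside 13.9% (10.8 to 17.5) in the rest of the chromosome and 10.0% in the whole list.

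The first 3 Mb held 61 of the 67 regions, at 20.3 per Mb (15.6 to 26.1), and the last 1.5 Mb held 6, at 4 per Mb (1.47 to 8.71). In windows of 500 kb from 33500001 on, the numbers were 6, 11, 10, 14, 9, 11, 1, 5 and 0. The densest window was thus the fourth, starting at 35000001, and the emptiest the last, starting at 37500001. The first window had the highest median height, 77, with 3 of its 6 regions among the tallest 10% of the list. The sixth, with 11 regions, had a median of 41 and none above 61. The densest window had a median of 64, with 2 of its 14 regions among the tallest 10%.

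**Figure D4:**
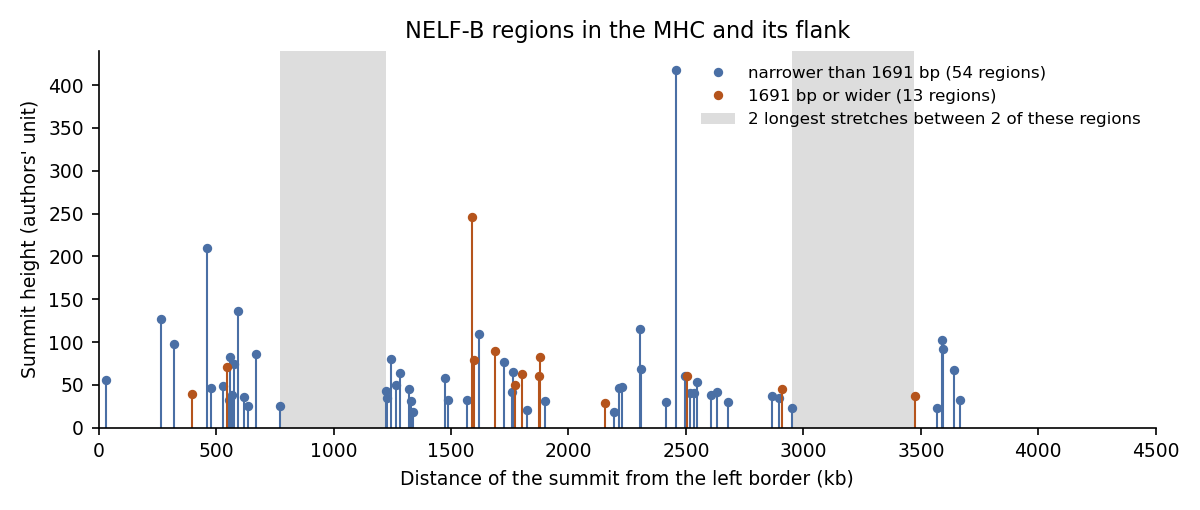
Summit height (authors' unit) of the 67 regions of the MHC and its flank against the distance in kb from the left border. Regions of 1691 bp or wider are in orange (13) and the others in blue (54), and grey bands mark the 2 longest stretches between consecutive regions, 451 and 520 kb. Wide regions gather in the densest window, whose regions lie to the right of the first grey band and reach 246.

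Wide regions were concentrated in the densest window. In the 500 kb from 35000001, 7 of the 14 regions were at least 1691 bp wide, beside 10.0% in the whole list, and the median width there was 1690 bp. These 7 include the 3 widest of the stretch. The first, chr17:35087294-35090372, spanned 3079 bp and reached 246. The second, chr17:35377484-35380545, spanned 3062 bp at a height of 83, and the third, chr17:35186452-35189296, spanned 2845 bp at a height of 90. The other 4 spanned 1726 to 1839 bp with heights of 50 to 79. This window was singled out for its number of regions, not for widths, but its widths were seen before they were counted. Apart from chr17:35087294-35090372, the 7 had heights of 50 to 90, where the median of the whole list was 44. The tallest region of the stretch was narrower than all 7, at 1543 bp.

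By windows of 500 kb from 33500001 on, regions among the tallest 10% of the list numbered 3, 1, 0, 2, 2, 0, 0, 1 and 0. The 10 tallest regions of the stretch are given here, the last of them below the cutoff of 94. The tallest, chr17:35957819-35959361, reached 418 and had its nearest neighbour 38.3 kb away. Next were chr17:35087294-35090372 with 246 and chr17:33961062-33962040 with 210, the latter only 979 bp wide. A height of 136 was found at chr17:34092146-34093560 and one of 127 at chr17:33765406-33766769. Heights of 115, 109, 103, 98 and 92 followed at chr17:35803853-35805149, chr17:35118260-35119914, chr17:37088094-37089182, chr17:33821349-33823006 and chr17:37094805-37096040. The shortest regions were 18 at chr17:34837681-34838524, 18 at chr17:35693830-35694736 and 21 at chr17:35322832-35323396. The last of these was 565 bp wide, the narrowest member on the chromosome. At the left border, chr17:33531013-33532224 (height 56) lay inside and chr17:33495262-33496422 (height 67) outside. At the right border, chr17:37165144-37166233 (height 32) was the last inside, and the next region outside lay past 39.9 Mb, so moving this border outward by 1 Mb would not change the 67.

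Between some regions of the stretch lay long empty intervals, although these were a smaller share of its gaps than elsewhere. The longest between 2 of its regions was 520 kb, from 36452806 to 36972993. The second was 451 kb, from 34272886 to 34723703. It began 195 kb past the end of the run of 5 close regions, and the regions at its edges had heights of 26 and 43. On its right side, regions resumed with 8 members from chr17:34723704-34725112 to chr17:34837681-34838524, at heights of 43, 35, 80, 50, 64, 45, 31 and 18. Intervals of 253 kb from 35400243 and 233 kb from 33532225 followed. In all, 4 of the 66 gaps within the stretch exceeded 200 kb, or 6.06%, against 18.1% of the 498 gaps on the chromosome and 26.1% elsewhere. Which genes lie in each interval was not determined, since the gene list is in another assembly.

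The widest region of the whole list, chr17:39979801-39985913, differed in shape from every other member. It spanned 6113 bp, or 5.07 times the median member, 1.91 times the second widest on the chromosome and 1.62 times the second widest of the list at 3768 bp. Its summit, at 39980256, lay 455 bp from the left edge, at 7.44% of the width. No other region of the list had its summit farther from its middle in relation to its width. The lowest position on the other autosomes was close, at 8.18%. The height of 253 was rank 7 on the chromosome. The 37 other regions of the list with heights of 228 to 278 had a median width of 1751 bp, a range of 938 to 3196 bp, and summits at 17.1% to 78.5% of the width. Since the region was chosen as the widest, its width had to exceed theirs. Its summit position is a share of that same width, so it is not independent of this choice.

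This region was also isolated. It lay 2814 kb from the region on its left (height 32) and 1031 kb from chr17:41016782-41018021 on its right (height 85). In the whole list, 73 regions or 0.803% were more than 1 Mb from any other, 3 of them on chromosome 17. Their median height was 40, and the next tallest after this one reached 146. In the gene list the neighbourhood past the olfactory receptor genes of chromosome 17 holds genes of exocrine gland-secreted peptides (Esp genes, which encode tear and saliva signals), and Rn18s-rs5, a pseudogene of 1849 bp, lies between Esp15 and the long noncoding RNA AY036118. The symbol Rn18s-rs5 marks a sequence related to the 18S ribosomal RNA, whose genes exist in many tandem copies in the mouse genome. Whether the region overlaps Rn18s-rs5 cannot be read from coordinates of different assemblies, and the part that repeated sequence plays in its width and height was not tested. Leaving it out changed the share of tall members on chromosome 17 from 12.4% to 12.2% and left the median height at 51.

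**Figure D5:**
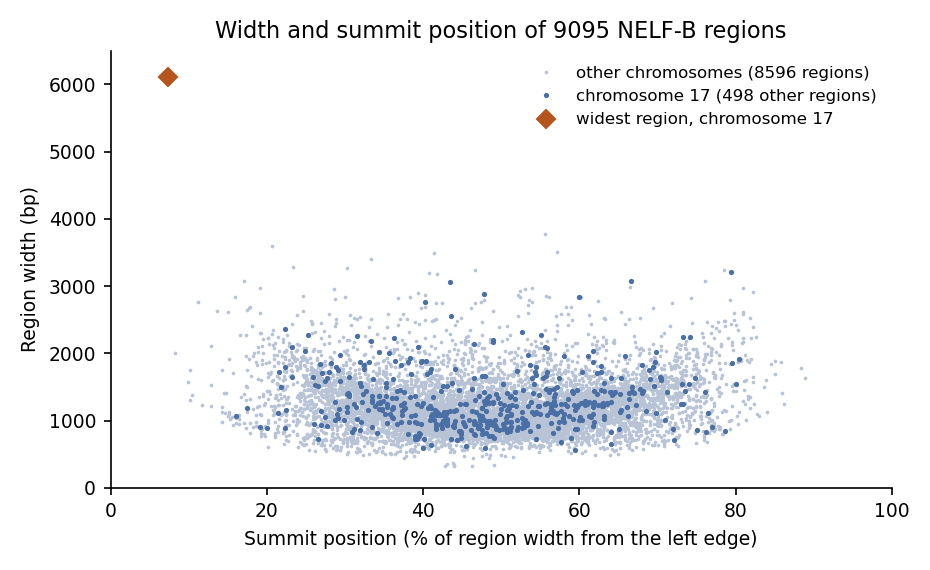
Region width in bp against the position of the summit as a percentage of the width, for 9095 NELF-B regions. Chromosome 17 is in dark blue, other chromosomes in light blue, and the widest region is the orange diamond. It lies alone at 6113 bp and 7.44%, while the next widest region reaches 3768 bp.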

How the data were processed

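One NELF-B ChIP-seq library and 1 input library were deposited, and the file used here belongs to the NELF-B library. Per the file headers it holds 3 tracks of 9095 entries: summits with a height, intervals and active regions. The last 2 tracks had identical positions in all 9095 entries. The height is a score given by the authors, whose unit neither the file headers nor the labels state. MACS, which calls peaks, is named in the submitters' processing notes, with its version left out. The aligner, genome build, threshold and role of the input were not given in the sources used here. Summits in the deposited list lie on a grid of 16 bp in 497 of 499 members, which limits their resolution.

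Each start was moved up by 1 bp, giving positions counted from 1, and members were assigned to the stretch from 33.5 to 38 Mb by their summit. Chromosome length was the end of the last region. Rates have exact Poisson intervals, shares exact Clopper-Pearson intervals, ratios of rates exact conditional intervals, and medians exact order-statistic intervals, all at 95%. These functions were tested on simulated data. The gene list is RefSeq's for GRCm38.p6; 88 regions on 7 chromosomes, 3 of them on chromosome 17, started past its last gene, so its coordinates were not used. Of the genes looked up, C4a and Rn45s were not found among its protein-coding genes of chromosome 17. Intervals came from SciPy 1.17.1, tables from pandas 2.3.3 with NumPy 2.4.6, and figures from matplotlib 3.10.9, under Python 3.11.15.

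The members, the gene lists and the rule for named regions were chosen with earlier results of these data known. Named were the 10 tallest and 5 widest members, the 5 densest windows, the 5 longest and 5 shortest gaps, and, in the MHC stretch, the 10 tallest, 3 shortest and 3 widest regions, the densest and emptiest windows of 500 kb and the regions at its borders. The runs of close regions, other gaps and windows, the wide regions of the densest window, and the regions beside named ones were chosen after their values were seen.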

Additional observations from a re-analysis of the deposited data

How the results depend on the processing

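Among 39 alternatives to 11 results, the value stayed inside its interval (within 10% where it had none) in 24 and moved out in 15. A direction turned in 0, but a turn could be counted only for ratios whose interval excluded 1 or that had none. It could not be counted for the shares, the regions per 100 genes or the height ratio of the MHC stretch. The 3 alternatives that left out the widest region were added after seeing the data. The density ratio of chromosome 17 to the other autosomes was 1.35 without the MHC stretch and 1.82 for the taller 50% of the list. The share of tall members was 7.01% for the tallest 5% of the list and 33.3% for the tallest 25%, where the other autosomes had 4.81% (4.36 to 5.29) and 24.0% (23.0 to 24.9). The interval for the tallest 25%, 29.1 to 37.6, lay above that of the other autosomes, and that for the tallest 5%, 4.93 to 9.62, overlapped it. Members with a neighbour were 19.1% for the taller 50%, 8.82% within 5 kb and 70.7% within 50 kb. Empty windows were 41.7% for the taller 50% and 42.9% for windows of 500 kb. The density ratio of the MHC stretch to the rest of the chromosome was 4.27 for its part up to 36.5 Mb and 2.20 without empty windows, and its share of tall regions was 31.3% for the tallest 25%. The widest region was 1.91 times the second widest of the chromosome. Regions per 100 genes were 22.8 over all genes and 47.1 with receptor genes left in. These alternatives altered the cutoff, the set of regions, the length, the comparison or the gene number. Why each value moved was not tested. For 3 shares, leaving out chromosome 11 alters only the comparison, which became 9.20% for tall regions, 16.5% for neighbours and 32.1% for empty windows. No replicate could be left out, and no paired analysis was possible because NELF-B and input have 1 library each. The unknown depth limits every height, and regions too weak to be listed cannot be told from absent ones.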
